A study of Drosophila melanogaster with 10 samples.

Results

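The genes described here supply deoxynucleotides for DNA synthesis or time the entry into S phase. The list holds 9 genes of Drosophila melanogaster: RnrL, RnrS, Ts, dnk and dUTPase for nucleotide supply, and CycE, E2f1, E2f2 and Dp for S-phase entry. They were found by the gene symbol that the array annotation gives, or its current synonym. Of the 9 genes, 7 had 1 probe set each that the annotation assigns to a single gene, out of 11982 genes with such a probe set on the array. E2f1 was represented by 1 probe set shared with Torsin, an unrelated gene, and no probe set of the annotation used here carried RnrS.

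SL2 cells, a macrophage-like line from fly embryos, received 10 µg of double-stranded RNA (dsRNA) and were harvested after 5 days. Cells given dsRNA against eGFP, which has no target in the fly, were the mock control on 4 arrays. Tip60, a histone acetyltransferase, was targeted on 6 arrays, by 3 dsRNAs with 2 arrays each, named after their positions in the target as 1321-1618, 190-807 and 603-1116. All groups share the line, the 26°C culture and the exposure to dsRNA, no untreated cells are compared here, and the labels do not say whether replicate arrays stem from different cultures. The p-values therefore reflect variation between arrays that can be technical. The titles number the controls as eGFP2 and eGFP3 with 2 arrays each, called the eGFP2 pair (replicates 1 and 2) and the eGFP3 pair (replicates 3 and 4) below, and the labels do not say what the pairs share.

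Ribonucleotide reductase turns ribonucleotides into deoxyribonucleotides and is built from a large catalytic subunit, RnrL, and a small one, RnrS. Thymidylate synthase (Ts) makes dTMP from dUMP, dUTPase removes dUTP before it can enter DNA, and the deoxynucleoside kinase dnk salvages deoxynucleosides. In flies Cyclin E (CycE) with its kinase Cdk2 starts S phase, E2f1 activates and E2f2 represses genes needed for replication, and Dp is the partner that both E2f proteins need to bind DNA.

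The targeted transcript was checked first. Tip60 signal ran from 1138 to 1339 with eGFP and from 209 to 399.6 after Tip60 RNAi, or 24.3% of the control level (log2 change −2.04, SE 0.15, limma adjusted p = 4.77e-08; two-sided exact permutation p = 0.00476, the smallest that 210 splits allow). Each array had been scaled to the same trimmed mean of 1000, while its median signal ran from 55.6 to 72.1 with eGFP and from 78.6 to 110.1 after Tip60 RNAi. Hemocytes are the fly's blood cells, and all 8 of their markers listed were measured and rose (median log2 change 0.70), though after median centring 3 of them did, after scaling by hybridization spike-ins 3 and by poly-A spike-ins 2, with a median of −0.05 under the last. They had a summed signal of 85415 to 92743 on the eGFP arrays and 145514 to 173870 on the Tip60 RNAi arrays. Of the 4 markers listed for each of neurons, muscle, fat body and germ line, 3, 3, 3 and 2 had a probe set. Their summed signals were 52.4 to 606 per list over both treatments, far below those of the hemocyte list. In the neuron list most of the signal came from elav, with means of 433 with eGFP and 378 after Tip60 RNAi. In RNA from a whole culture, fewer cells of a kind and less RNA per cell cannot be told apart, and the part of the hemocyte marker rise in the results below was not tested.

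After Tip60 RNAi, 5 of the 7 genes with a probe set of their own fell and none rose: dUTPase, dnk, RnrL, E2f2 and Dp. The falls were modest, to between 68.2% of the control level for dUTPase and 84.9% for Dp. Ts and CycE did not pass the test. CycE did once pairs of arrays were averaged, taken from the titles for eGFP and by dsRNA for Tip60 RNAi. The test was limma's on log2 signals with Benjamini-Hochberg adjustment over 11261 probe sets, called at an adjusted p under 0.05, and no gene rose at an unadjusted p under 0.05 either (0 of 7). Over all probe sets tested 16.7% were called lower and 17.8% higher. Bright probe sets were called lower more often, 32.0% in the brightest of 4 equal classes, where RnrL, Ts, dnk, dUTPase, E2f2 and Dp lie, and 26.7% in the next one, where CycE lies. The median log2 change of the 7 genes was −0.33, against 0.08 for all probe sets tested and −0.03 in the brightest class. The genes were chosen with earlier results of these data known, so these comparisons are not independent of the data.

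**Figure D1:**
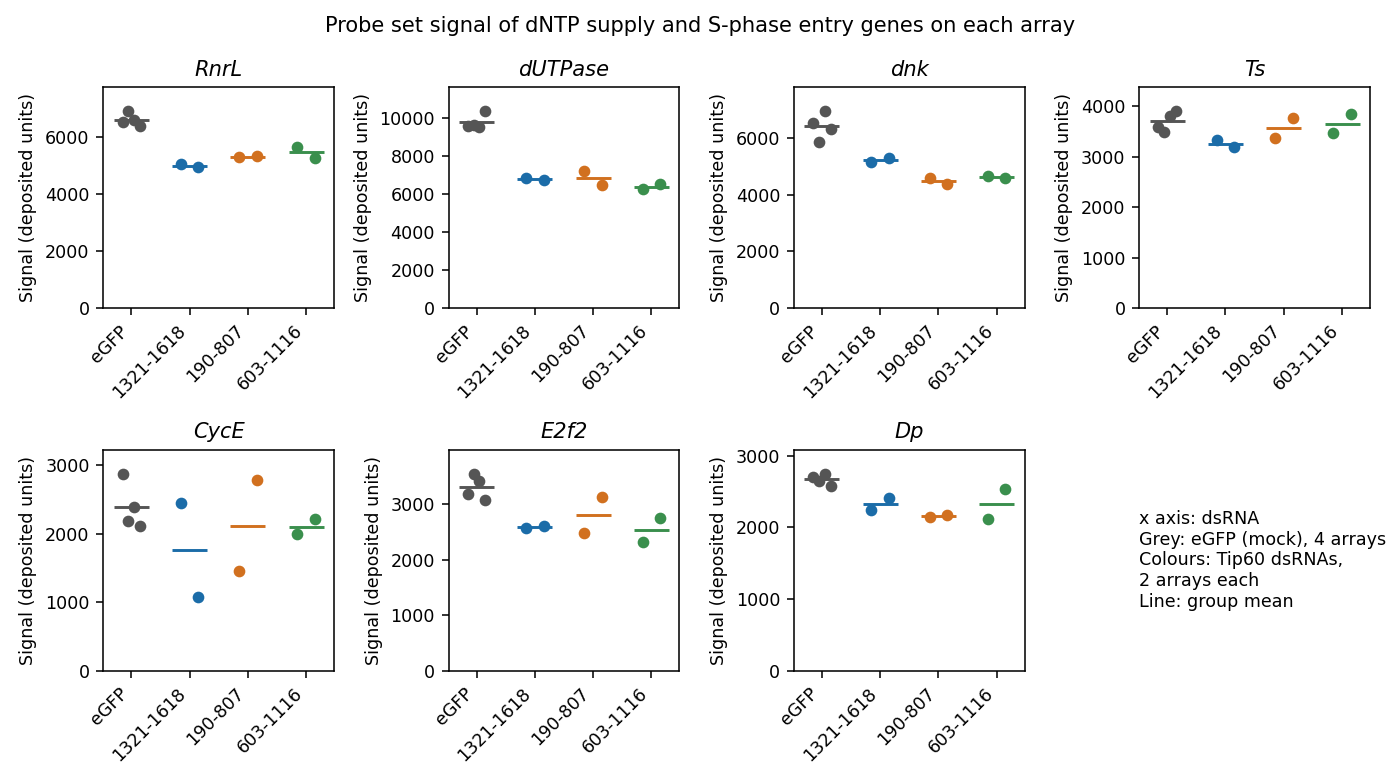
Deposited signal of the 7 genes (y axis, linear, from 0) by dsRNA (x axis), with 1 point per array and a line at each group mean. The 6 Tip60 RNAi arrays lie below all 4 eGFP arrays for RnrL, dUTPase, dnk and Dp, while for Ts, CycE and E2f2 the treatments overlap.

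Among the nucleotide supply genes, dUTPase fell most. Its signal was 9548, 9633, 9513 and 10345 on the eGFP arrays, and ran from 6259 through a median of 6605 to 7193 on the Tip60 RNAi arrays. Every Tip60 RNAi array was thus below every control. The log2 change was −0.55 (SE 0.06, limma adjusted p = 1.64e-06).

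The kinase gene dnk gave 6526, 5838, 6945 and 6322 with eGFP and 4389 to 5296 after Tip60 RNAi, with a median of 4621. The treatments did not overlap, and eGFP replicate 2 came closest to the Tip60 RNAi arrays. Its log2 change was −0.42 (SE 0.07, limma adjusted p = 0.000139), a level of 74.5% of the control.

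RnrL, the catalytic subunit of ribonucleotide reductase, showed the tightest values. It gave 6517, 6904, 6599 and 6365 on the eGFP arrays and 4936 to 5638 on the Tip60 RNAi arrays, with a median of 5283. All 6 arrays were again below all 4 controls, and the log2 change was −0.33 (SE 0.06, limma adjusted p = 0.000209). The standard deviation of its log2 signal within groups was 0.05, lower than that of all but 4.01% of probe sets in the brightest class.

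Ts, which makes dTMP, had signals of 3594, 3490, 3806 and 3904 on the eGFP arrays. After Tip60 RNAi they ran from 3190 through a median of 3417 to 3834, so 4 arrays lay below all controls and the others among them. The log2 change was −0.09 with a 95% interval of −0.22 to 0.05 (limma adjusted p = 0.343), which leaves falls as large as 0.22 possible.

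Of the genes for S-phase entry, E2f2, the repressor among the E2f proteins, had signals of 3193, 3554, 3421 and 3070 with eGFP and 2318 to 3133 after Tip60 RNAi, with a median of 2591. The overlap came from replicate 2 of dsRNA 190-807, at 3133, and the other 5 arrays were below all controls. The log2 change was −0.33 (SE 0.08, limma adjusted p = 0.00354). Without the eGFP2 pair of controls the change was −0.30 and the adjusted p 0.0509.

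Dp, the DNA-binding partner, had signals of 2707, 2649, 2749 and 2576 with eGFP and from 2119 through 2212 to 2529 after Tip60 RNAi. The treatments did not overlap, but replicate 2 of dsRNA 603-1116, at 2529, was close to the lowest control. The log2 change was −0.24 (SE 0.06, limma adjusted p = 0.00934). It did not pass after quantile normalization (adjusted p = 0.0513), nor without the eGFP2 or the eGFP3 pair of controls (0.0768 and 0.0611). With RnrL, dnk and dUTPase, Dp made 4 of 7 genes with all Tip60 RNAi arrays below all controls, a separation that 13.1% of all probe sets showed.

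CycE, the cyclin that starts S phase, varied far more than the others. Its signal was 2876, 2182, 2392 and 2117 on the eGFP arrays. It was 2449 and 1074 with dsRNA 1321-1618, 1451 and 2782 with 190-807, and 1994 and 2207 with 603-1116. The 2 arrays of 1321-1618 lay far apart, as did those of 190-807, and the treatments overlapped. The log2 change was −0.32 with a 95% interval of −0.74 to 0.10 (limma adjusted p = 0.232). When the 2 arrays of each eGFP pair and of each dsRNA were averaged first, the same change was called (SE 0.11, limma adjusted p = 0.0355). This averaging takes the spread between the 2 arrays of a dsRNA out of the test. With the same pairs as a random block the change was not called (0.243). Its standard deviation within groups, 0.46 on the log2 scale, was at the 99.8th percentile of its brightness class, and those of the other 6 genes lay between 0.05 and 0.14. The suffix of its probe set name (_s_at) marks probes that match more than 1 transcript, and which transcripts they match was not examined. The probe set shared by E2f1 and Torsin and those of Cdk2, Pfas and pug, described below, carry the same suffix.

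The probe set shared by E2f1 and Torsin gave 74.5 to 105.8 on the eGFP arrays and 56.3 to 158 on the Tip60 RNAi arrays. It was dim, the treatments overlapped (log2 change −0.05, 95% interval −0.75 to 0.66), and its signal cannot be assigned to either gene, so E2f1 itself has no value here.

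**Figure D2:**
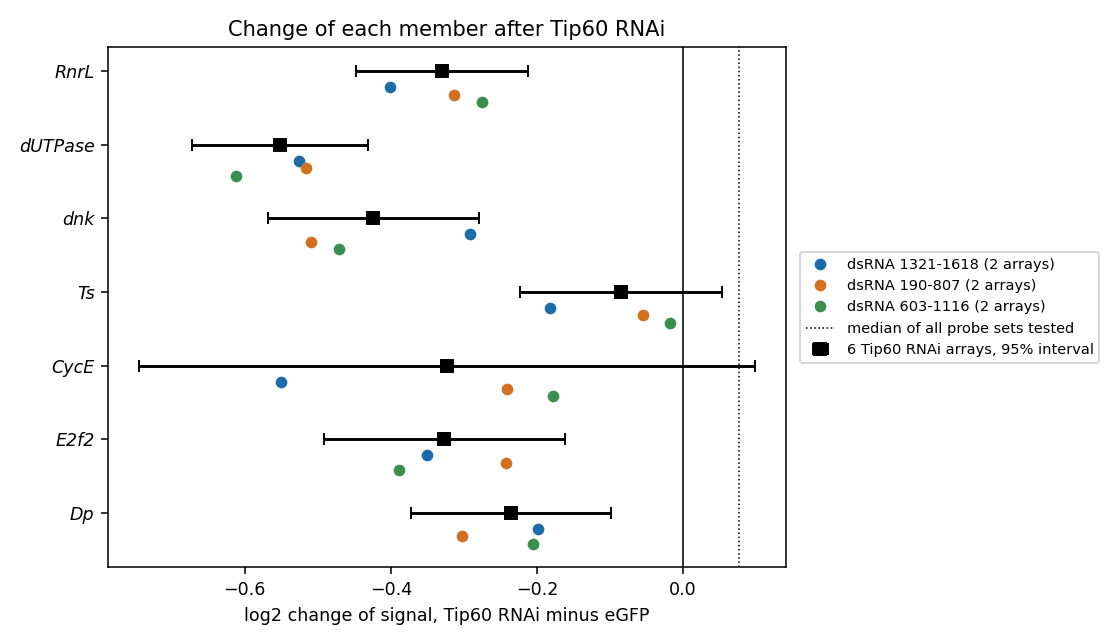
Log2 change of signal, Tip60 RNAi minus eGFP (x axis), for each of the 7 genes (y axis). Squares with bars are the mean of 6 arrays and its 95% interval, coloured points the 3 dsRNAs with 2 arrays each, and the dotted line the median of all probe sets tested. The intervals of RnrL, dUTPase, dnk, E2f2 and Dp lie below 0, those of Ts and CycE span it, and every dsRNA mean is below 0.

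The 3 dsRNAs were then set against eGFP one at a time, which asks whether a change rests on 1 reagent. The 3 comparisons share their eGFP arrays, and the last 2 dsRNAs overlap in sequence. Each called 4 of the 7 genes lower, where the shares of all probe sets called lower were 12.6%, 11.3% and 13.7% for 1321-1618, 190-807 and 603-1116. RnrL, dnk and dUTPase were called with each. For dUTPase the log2 changes were −0.53, −0.52 and −0.61 in that order (limma adjusted p 0.000152, 0.00021 and 4.04e-05). For RnrL they were −0.40, −0.31 and −0.27 (0.000798, 0.00483 and 0.00917). For dnk they were −0.29, −0.51 and −0.47 (0.014, 0.000341 and 0.00049).

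E2f2 was called with 1321-1618 (−0.35, adjusted p = 0.0218) and 603-1116 (−0.39, 0.0113), but not with 190-807 (−0.24, 0.112). Dp was called with 190-807 (−0.30, adjusted p = 0.0182), but not with 1321-1618 (−0.20, 0.109) or 603-1116 (−0.21, 0.0865). These differences between reagents did not themselves pass a test. limma's F-test among the 3 dsRNAs called 0 of 7 genes, with 0 of 7 at an unadjusted p under 0.05, and the lowest adjusted p was 0.572, for dnk. Over all probe sets that test called 0.0355%. Leaving out replicate 2 of dsRNA 1321-1618 gave 2 called genes with that dsRNA in place of 4, but that dsRNA then has 1 array, which is assumed to vary like the other groups.

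A ratio of 2 genes within an array does not change when all signals of the array are multiplied by 1 factor. Quantile normalization and cyclic loess, used below, can change it, and the ratios here are of the deposited signals. Over the 21 pairs of the 7 genes, 4 pairs had ratios on the 6 Tip60 RNAi arrays that were all on one side of the 4 controls, 19.7% being the share over all pairs of probe sets tested and 43.2% within the brightest class. The 4 of 21 pairs are no more than that background. In 3 of them dUTPase was the gene that fell further. The log2 ratio of Ts to dUTPase rose from between −1.46 and −1.32 to between −1.10 and −0.76. That of RnrL to dUTPase went from −0.70 to −0.48 up to −0.44 to −0.15, and that of dUTPase to Dp from 1.79 to 2.01 down to 1.36 to 1.74. The fourth pair was RnrL over Ts, at 0.71 to 0.98 with eGFP and 0.46 to 0.70 after Tip60 RNAi.

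Across the 10 arrays the log2 signals of dnk and dUTPase had a Pearson r of 0.899 and those of RnrL and dUTPase 0.89, while CycE correlated with the other 6 genes at 0.228 to 0.628 and Ts with the other 6 at 0.255 to 0.628. These values describe arrays that share the treatment and the scaling. Among 8289 other genes, the patterns most like that of RnrL were those of CG13692 (r = 0.982), Marc (0.978) and CG18545 (0.978), whose log2 changes were −0.71, −0.40 and −0.88. The patterns most like that of CycE were those of Tbce (0.962), CG2608 (0.948) and ADD1 (0.937), with changes of −0.11, −0.16 and −0.25.

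**Figure D3:**
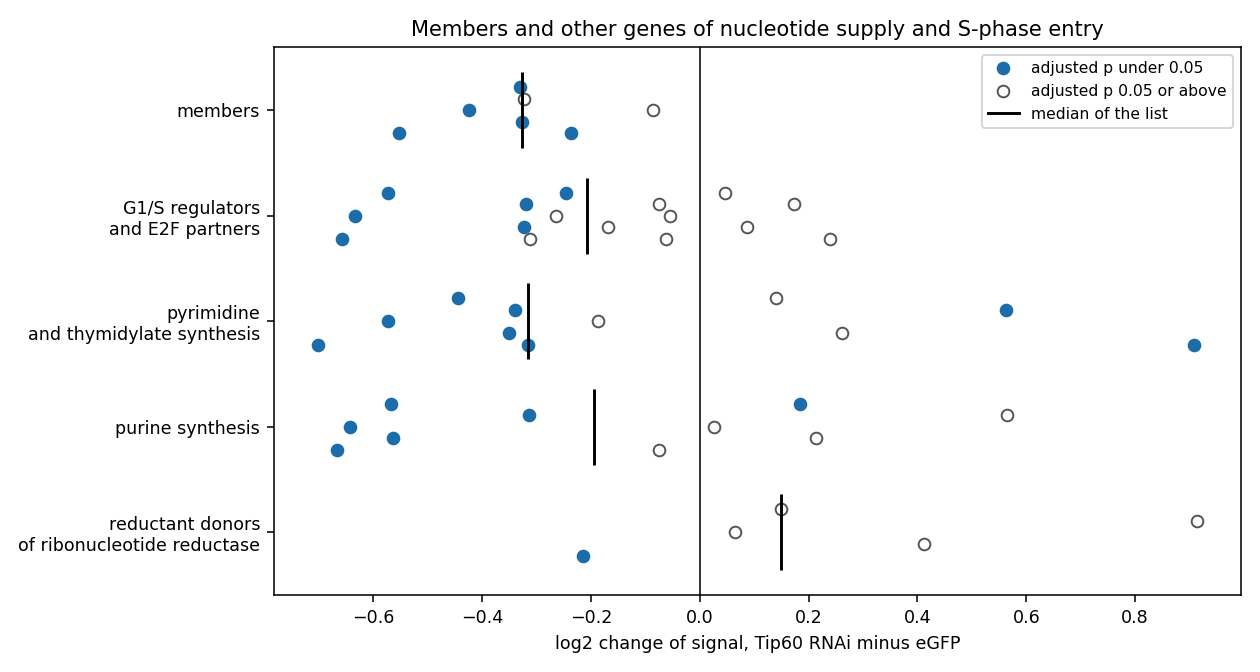
Log2 change of signal, Tip60 RNAi minus eGFP (x axis), for the 7 genes ("members") and 4 lists of related genes (y axis), with 1 point per gene, offset vertically for legibility. Filled points passed the test, open points did not, and the black line is the list median, which on the deposited scale is negative for all lists but the reductant donors.

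Other genes of the same pathways were counted in 4 lists, each gene by its brightest probe set. Counted the same way, 19.7% of the 8290 genes tested were lower and 17.5% higher. The shares by brightness class given above are for probe sets and were not computed for genes. Of 16 tested regulators of the G1/S transition and E2F partners, 6 fell and 0 rose (9 and 1 at an unadjusted p under 0.05), with a median log2 change of −0.21. Of the 16, 5 lay in the brightest class and 3 of these fell, and 7 lay in the next class, where 1 fell. The other 4 lay in the class below that, where 2 fell and 7.82% of all probe sets tested were called lower. lin-52, a subunit of the complex in which E2f2 represses genes, had a mean signal of 860 ± 117 (SD, n = 4) with eGFP and 552 ± 119 (n = 6) after Tip60 RNAi (log2 change −0.66, limma adjusted p = 0.00177). Its call was lost without the eGFP3 pair of controls (adjusted p = 0.0618). Rbf2, a retinoblastoma family protein that acts with E2f2, went from 604 ± 71.7 to 389 ± 38.8 (−0.63, limma adjusted p = 0.000472). Cdk2, the kinase that CycE activates, was picked out after its values were seen. It gave 974 to 1214 with eGFP and 664 to 754 after Tip60 RNAi, with no overlap (log2 change −0.57, limma adjusted p = 6.81e-05). Without the eGFP3 pair 3 genes of this list were called lower in place of 6.

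Of 11 tested genes in the list for pyrimidine and thymidylate synthesis, which also holds the adenylate kinase gene Adk3, 6 fell and 2 rose. The median log2 change was −0.31. All 5 in the brightest class fell. Nmdmc, a folate enzyme of mitochondria, went from 3547 ± 101 to 2184 ± 141 (−0.70, limma adjusted p = 3.31e-07). r-l, which makes UMP, went from 3213 ± 243 to 2166 ± 236 (−0.57, limma adjusted p = 4.98e-05). The risers were dimmer. They were 2 of the 4 genes of this list in the class of mean signals from 91.1 to 751. In that class 22.2% of probe sets were called higher and 7.82% lower. The adenylate kinase gene Adk3 gave 53.3 to 109.5 with eGFP and 75.1 to 187 after Tip60 RNAi, with overlap (log2 change 0.91, limma adjusted p = 0.0433). The folate enzyme gene pug gave 138 to 268 and 296 to 359.6 (0.56, limma adjusted p = 0.0212). Neither rise passed after quantile normalization (adjusted p = 0.292 and 0.218) or cyclic loess (0.255 and 0.130). Leaving out each of the 10 arrays in turn kept the call of Adk3 in 3 fits (adjusted p 0.0137 to 0.125), and that of pug was lost without eGFP replicate 3 (log2 change 0.34, adjusted p = 0.0843).

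Of 10 tested genes for purine synthesis, 5 fell and 1 rose, with a median of −0.19. Those that fell were 2 of 5 in the brightest class and 3 of 3 in the next. Prat, whose enzyme takes the first committed step, went from 2729 ± 54.7 to 1721 ± 91.1 (log2 change −0.67, limma adjusted p = 4.24e-07). Pfas, which acts later in that route, went from 2455 ± 123 to 1572 ± 54.2 (−0.64, limma adjusted p = 6.74e-07). The adenylosuccinate synthase gene Adss, on the branch to AMP, rose from 17003 ± 1130.4 to 19328 ± 1232 (0.18, limma adjusted p = 0.0426). Leaving out each array in turn kept its call in 4 of 10 fits (adjusted p 0.0336 to 0.136). The rise did not pass after quantile normalization (adjusted p = 0.159) or with pairs of arrays averaged (0.0613). Under the median, hybridization and poly-A scalings described below, Adss was instead called lower (log2 change −0.32, −0.37 and −0.57, adjusted p = 0.0233, 0.0491 and 0.0018). Among 5 tested genes for thioredoxins, glutaredoxins and their reductases, which return ribonucleotide reductase to its active form, 1 fell and 0 rose (the same counts at an unadjusted p under 0.05; median 0.15, and −0.14 after quantile normalization). That one was Trxr1, 1 of 2 in the brightest class, at 9826 ± 373 with eGFP and 8473 ± 449 after Tip60 RNAi (log2 change −0.21, limma adjusted p = 0.00858). Its call was lost without the eGFP2 or the eGFP3 pair (adjusted p = 0.067 and 0.0545). Of the 5 genes, 2 lay in the dimmest class and neither was called. In that class the median log2 change of all probe sets tested was 0.49, with 0.355% called lower and 9.2% higher.

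**Figure D4:**
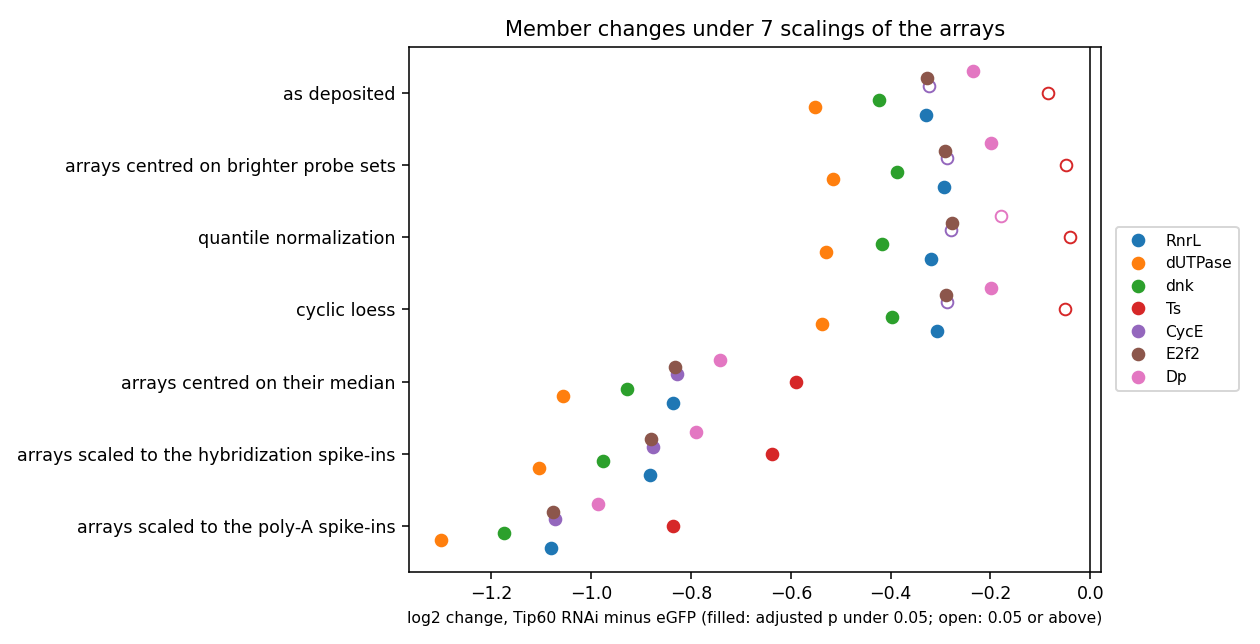
Log2 change, Tip60 RNAi minus eGFP (x axis), of the 7 genes under 7 scalings of the arrays (y axis), filled where the adjusted p was under 0.05. All points are below 0. The upper 4 scalings lie close together, and the lower 3 move every gene left by 1 constant.

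How the arrays are put on a common scale sets the size of each change. When arrays were centred on their brighter probe sets, quantile normalized or brought together by cyclic loess, dUTPase lay at −0.54 to −0.52, dnk at −0.42 to −0.39, RnrL at −0.32 to −0.29 and E2f2 at −0.29 to −0.28, each called under all 3. Centring on the array median, or scaling to the hybridization or the poly-A spike-ins, adds −0.51, −0.55 or −0.75 to every log2 change. All 7 genes were called lower under these 3, Ts at −0.84 to −0.59 and CycE at −1.07 to −0.83, as follows from the constant. The median of all probe sets then stood at −0.43, −0.48 and −0.67, and the distance of each gene from that median was by construction the same as in the deposited scale. The related lists moved with the constant as well, while 48.5%, 43.3% and 60.1% of all probe sets tested were called lower under the 3 scalings in that order. Of the 16 G1/S regulators and E2F partners 14, 14 and 16 were called lower, of the 11 pyrimidine and thymidylate genes 8, 7 and 9, of the 10 purine genes 7, 7 and 9, and of the 5 reductant donors 3, 2 and 3. No gene of these 4 lists was called higher under any of the 3.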

How the data were processed

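Transcript levels in SL2 cells were measured on 10 Affymetrix arrays. The authors' deposited values are linear probe set intensities made with GCOS 1.4, per the submitters' processing notes, and the values show that each array was scaled to a 2% trimmed mean of 1000. The steps for background and for combining probes are not given in the sources used. The number of arrays limits the precision.

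Of 18952 probe sets, 183 controls were left out, and fly probe sets under the 40th percentile of mean log2 signal (34.5) were not tested. Names came from the platform annotation, brought up to date through Entrez identifiers in RefSeq (assembly Release 6 plus ISO1 MT). Among fly probe sets, 13647 had 1 symbol (13544 of them matched), 402 several and 4720 none. Promoter and protein sequences were not used here. Groups came from the labels. limma 3.58.1 in R 4.3.3 (lmFit, eBayes with an intensity trend) compared 6 with 4 arrays, and 4 group means were fitted for the single dsRNAs and the F-test. Scripts were tested on simulated data.

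From each related list, up to 2 called genes that rose most and 2 that fell most were named, and for RnrL and CycE the 3 genes with the highest r. E2f1 had no probe set of its own for this. The members and lists were chosen with earlier results of these data known. Alternatives were other scalings, filters, an added 16 signal units, other variance models, and leaving out arrays, eGFP pairs or dsRNAs. Pairs of arrays were also taken as a block or averaged, by title for eGFP and by dsRNA for Tip60 RNAi.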

Additional observations from a re-analysis of the deposited data

Results flagged for a closer look

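Of 16 sets of arrays tested for a single value far from the rest (the 4 eGFP or the 6 Tip60 RNAi arrays of each of 8 probe sets), 2 stood out, where chance gives about 1 in 20. The dUTPase signal of eGFP replicate 4 was 10345, above the other controls, with a gap of 0.855 of the group's range to the next value. Without that array the log2 change of dUTPase was −0.52 (limma adjusted p = 1.74e-05), the smallest fall among the 10 fits that left out 1 array, against −0.55 with all arrays. On the probe set shared by E2f1 and Torsin, replicate 1 of dsRNA 603-1116 gave 158.4, with a gap of 0.734 of the range of the 6 Tip60 RNAi arrays.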

How the results depend on the processing

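RnrL, dnk and dUTPase kept their called fall under all 28 alternatives, E2f2 under 27 and Dp under 25, the exceptions being given in the results. CycE passed under 4 alternatives: the 3 constant scalings and the pairs of arrays averaged (log2 change −0.32, adjusted p = 0.0355). Ts passed under the 3 constant scalings. The count of genes called lower was 5, also in every fit that left out 1 array. It was 3 without the eGFP2 pair and 7 under the 3 constant scalings. The count also lost Dp after quantile normalization and without the eGFP3 pair, and gained CycE with the pairs of arrays averaged. The count called higher was 0 under every alternative. Leaving out 1 array gave 2 to 4 genes for dsRNA 1321-1618 and 3 to 4 for 190-807 and 603-1116. Probe sets called were 3885, 3267 to 3971 with 1 array left out, 5861 with arrays centred on the median and 6993 with the poly-A spike-ins. The share of higher calls was 51.5%, 44.8% after quantile normalization, and 6.84%, 5.74% and 3.25% under the median, hybridization and poly-A scalings. Under these last 3, Adss was called lower at −0.32, −0.37 and −0.57, and pug was −0.19 with the poly-A spike-ins, by the constant. With array pairs as a random block the consensus correlation was 0.021. No paired analysis was possible because the labels tie no treated array to a control array, and the replicate numbers are only an order within each group. The median over probe sets of a gene was not run, since each member has 1.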
